A study of Mus musculus with 5 samples.

Results

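The interferon regulatory factors (IRFs) are a family of DNA-binding proteins named for their role at interferon genes. The listed genes Irf1, Irf2, Irf3, Irf4, Irf5, Irf7, Irf8 and Irf9 were taken, 8 of the 21887 protein-coding genes of the mouse gene table. They were read in a single list of 22948 peaks of H3K27ac, a histone acetylation found at active promoters and enhancers. The mark was measured by ChIPmentation, in which the Tn5 transposase puts sequencing adapters onto chromatin while it is bound to the antibody. All libraries came from mouse bone marrow cells sorted as CD45.2+, lineage-, Sca1+ and Kit+ and labelled HSC/MPP, the stem and multipotent progenitor fraction, with genotype Mll3/4 deleted. There were 4 H3K27ac libraries and 1 input library, and the input carried the same genotype. Cells of other genotypes were not analysed here, so the list shows where the mark was called in deleted cells and no gain or loss. The sources used here name no Cre driver, age or sex, and do not say whether the cells came from a transplanted host. Mll3 and Mll4 (Kmt2c and Kmt2d) encode histone methyltransferases that act mainly at enhancers.

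IRF proteins share an amino-terminal DNA-binding domain that reads GAAA repeats, as in the interferon-stimulated response element (ISRE). Irf3, Irf5 and Irf7 act below pathogen sensors, Irf9 joins STAT proteins below the interferon receptors, and Irf1 and Irf2 compete as activator and repressor at shared sites. Irf4 and Irf8 bind DNA weakly alone and are known for pairing with the ETS factors PU.1 (Spi1) and Spib at composite elements. Irf8 is needed for monocytes and dendritic cells and limits neutrophil output, and Irf4 and Irf8 both act in B-cell development. Irf5 is grouped here with the generally expressed members, although it is best known from myeloid and B cells.

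The signal value of a peak is the authors' fold enrichment over background, and q is the authors' adjusted p-value of that peak. These are values of the pooled call, with no value for a single library, so no replicate error and no test exist for any of them. The list had a median signal value of 3.27 (interquartile range 2.69 to 4.62), and 21.2% of its peaks had q above 0.05. Total read depth was not given in the sources used here. For a gene without a peak, the mark was not detectable by the authors' calling, and may still be present. The cells were pooled, so a mark in few cells and a weak mark in all cannot be told apart. As a check of the label, 6 of 8 listed HSC/MPP marker genes had a peak within 1 kb of an end, against 36.2% of all protein-coding genes. Their strongest signal values ran from 2.45 (Cd48) to 12.2 (Meis1), with Kit at 5.66 and Flt3 at 6.58. Ly6a, which encodes Sca1, and Cd34 had none. Markers of B cells had one in 5 of 5 genes, with strongest signal values from 4.40 to 12.4. Dendritic cell markers had one in 1 of 4 genes (Tcf4, 3.70), and myeloid, T-cell, erythroid and non-blood markers had none in 17 genes.

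The promoters of 5 members are shown because the results turn on their starts: Irf1 and Irf2 had peaks on both sides of the start, Irf7 had a peak over it, and Irf4 and Irf8 had none. Each is the 250 bases before the annotated start in the RefSeq table of GRCm38.p6, read in the direction of transcription. They lie at chr11:53769764-53770013 (Irf1, plus strand), chr8:46739495-46739744 (Irf2, plus), chr7:141266425-141266674 (Irf7, minus), chr13:30748983-30749232 (Irf4, plus) and chr8:120736108-120736357 (Irf8, plus). Capitals mark matches, on either strand, to the ISRE (GAAA, 2 bases of any kind, GAAA), the ETS-IRF composite element or EICE (GGAA, 2 bases of any kind, GAAA), the STAT-binding gamma-activated site or GAS (TTC, 3 bases of any kind, GAA) and the TATA box (TATAAA).
Irf1: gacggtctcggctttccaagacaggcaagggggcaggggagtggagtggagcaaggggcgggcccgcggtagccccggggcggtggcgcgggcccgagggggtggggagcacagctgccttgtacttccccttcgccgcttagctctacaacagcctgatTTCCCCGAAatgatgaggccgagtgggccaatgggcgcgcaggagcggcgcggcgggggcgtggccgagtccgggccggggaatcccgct
Irf2: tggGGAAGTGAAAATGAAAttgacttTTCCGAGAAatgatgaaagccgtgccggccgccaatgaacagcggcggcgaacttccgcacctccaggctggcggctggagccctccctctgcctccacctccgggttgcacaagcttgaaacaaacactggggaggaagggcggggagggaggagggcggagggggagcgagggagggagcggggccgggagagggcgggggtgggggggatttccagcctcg
Irf7: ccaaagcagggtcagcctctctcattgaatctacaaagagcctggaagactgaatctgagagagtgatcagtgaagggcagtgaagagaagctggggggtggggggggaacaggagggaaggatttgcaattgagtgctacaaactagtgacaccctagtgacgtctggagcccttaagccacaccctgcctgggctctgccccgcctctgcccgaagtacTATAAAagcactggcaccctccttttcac
Irf4: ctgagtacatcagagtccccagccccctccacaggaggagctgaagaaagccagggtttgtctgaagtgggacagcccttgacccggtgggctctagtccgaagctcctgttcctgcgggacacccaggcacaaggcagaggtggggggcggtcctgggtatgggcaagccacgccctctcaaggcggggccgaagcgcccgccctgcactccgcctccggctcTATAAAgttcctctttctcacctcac
Irf8: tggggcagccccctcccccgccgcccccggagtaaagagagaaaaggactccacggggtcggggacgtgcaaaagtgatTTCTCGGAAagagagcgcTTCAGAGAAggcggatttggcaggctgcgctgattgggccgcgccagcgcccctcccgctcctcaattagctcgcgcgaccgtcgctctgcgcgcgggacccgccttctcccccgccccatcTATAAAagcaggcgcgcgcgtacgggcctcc

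In the Irf1 promoter the capitals are a GAS match, TTCCCCGAA, whose first base lies 90 bases before the start. In Irf2 an EICE match (GGAAGTGAAA) and an ISRE match (GAAAATGAAA) overlap at the far edge of the window, followed by a GAS match (TTCCGAGAA). Irf8 holds GAS matches, TTCTCGGAA and TTCAGAGAA, 171 and 153 bases before the start. Irf4, Irf7 and Irf8 each hold TATAAA, starting 26, 29 and 31 bases before the start. Irf3, Irf5 and Irf9 held none of these letters in their windows of 300 bases, which add the first 50 transcribed bases. Of the 21263 such windows of protein-coding genes, 3.35% held the ISRE letters, 2.53% the EICE letters, 7.69% the GAS letters and 12.6% the TATA letters. Looser letters were shared widely: GGG, 5 bases of any kind and CC, which takes in sites of NF-kB, were found in 57.0% of all windows and in a window of each member, and the ETS core GGAA in 95.7%. A match of letters is a description of the sequence and shows no binding.

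Of the 8 members, 6 had a peak overlapping the 1 kb on either side of a gene end, against 36.2% of all protein-coding genes. Irf5 and Irf8 had none. Among peaks with q of 0.05 or less the same 6 had one, against 34.4% of all genes. Among peaks with −log10 q of 5 or more 4 members had one (Irf1, Irf2, Irf7 and Irf9), against 24.0%, and among peaks with a signal value of 4 or more 3 did (Irf1, Irf2 and Irf9), against 23.2%. The promoter table gives strand, so the ends could be told apart: 5 members had a peak within 1 kb of an annotated start, against 38.0% of the 17492 genes with a start in the table. These were Irf1, Irf2, Irf3, Irf7 and Irf9. Irf4 had its end peaks at the far end of the gene only, so neither Irf4 nor Irf8 had a peak at a start, and 5 of the 6 other members did. Genes with an end peak but none at a start were 2.21% of those with a start in the table.

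**Figure D1:**
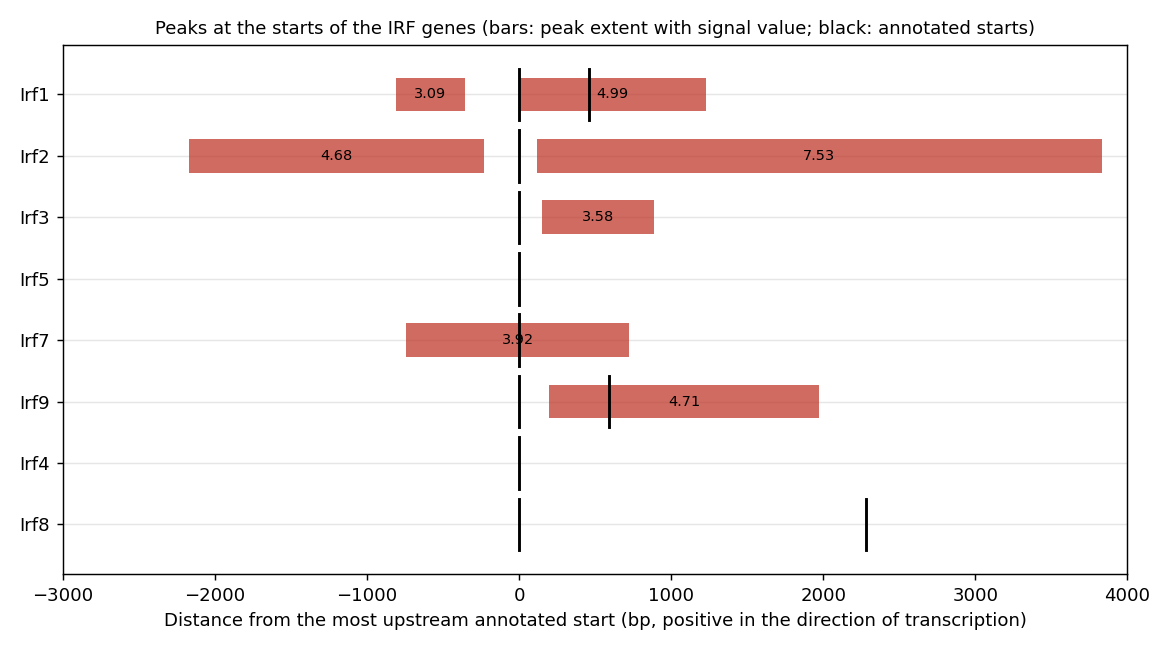
Extent of each peak (red bars, with its signal value) against distance in bases from the most upstream annotated start of each IRF gene; black ticks are annotated starts. Bars lie beside or over the starts of Irf1, Irf2, Irf3, Irf7 and Irf9, and no bar is seen at Irf5, Irf4 and Irf8.

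Irf2, a repressor of interferon-inducible genes that is known to protect stem cells from interferon-driven exhaustion, had the strongest start of the family. Its peaks lay on chromosome 8 at 46737572 to 46739514 and 46739865 to 46743575, with signal values of 4.68 and 7.53. The 350 bases between them held the annotated start, so the called mark lay to either side of it and not over it. The downstream peak was 3711 bp wide, against a median of 854 bp over the list. Its signal value stood at percentile 82.7 of the strongest end values of the 7929 genes with an end peak.

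Irf1, the activator induced by interferon gamma, had the same layout at lower signal values. A peak with a signal value of 3.09 ended 358 bases before the start (chromosome 11, 53769204 to 53769656). One with 4.99 ran from 2 to 1226 bases after it (53770016 to 53771240) and covered the second annotated start of the gene. The gap between them was 359 bases. Irf1, Irf2 and Irf4 had 2 end peaks each, and 8.70% of all genes had 2 or more.

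Irf3, the constitutive factor phosphorylated below nucleic acid sensors, had 1 start peak, from 148 to 889 bases after the start (chromosome 7, 44997796 to 44998537, signal value 3.58). This peak also reached the end window of the neighbouring gene Bcl2l12, so it cannot be given to Irf3 alone. Irf9, the DNA-binding subunit of the interferon-activated complex ISGF3, had a peak from 197 to 1973 bases after its first start and over its second (chromosome 14, 55604182 to 55605958, signal value 4.71). It also reached an end window of Rnf31. Irf7, the interferon-inducible factor behind the amplification of type I interferon, had 1 peak that covered its start (chromosome 7, 141265704 to 141267165, signal value 3.92). The strongest end values of Irf3, Irf7 and Irf9 stood at percentiles 26.7, 34.6 and 50.1 of genes with an end peak. By signal value, strength among the members with a start peak therefore ran from Irf2 through Irf1, Irf9 and Irf7 to Irf3. By −log10 q, Irf7 (8.80) stood above Irf9 (8.34). Without replicates, no spread can be set beside either order.

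Irf4, which drives plasma cell and late B-cell steps, had its end peaks on chromosome 13 at 30766346 to 30766956 and 30767508 to 30768188, on either side of the far end of the gene. Their signal values were 3.46 and 2.66, and their −log10 q values 3.79 and 1.22, so the second had q above 0.05. The first stood at percentile 23.9 of the strongest end values of genes with an end peak, lower than that of the 5 members with a start peak. The peak nearest to the Irf4 start began 10.6 kb into the gene. Irf5, which acts below Toll-like receptors, and Irf8 had nothing at either end. The nearest peak edge lay 13.5 kb from the Irf5 start and 8.9 kb from the first Irf8 start.

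**Figure D2:**
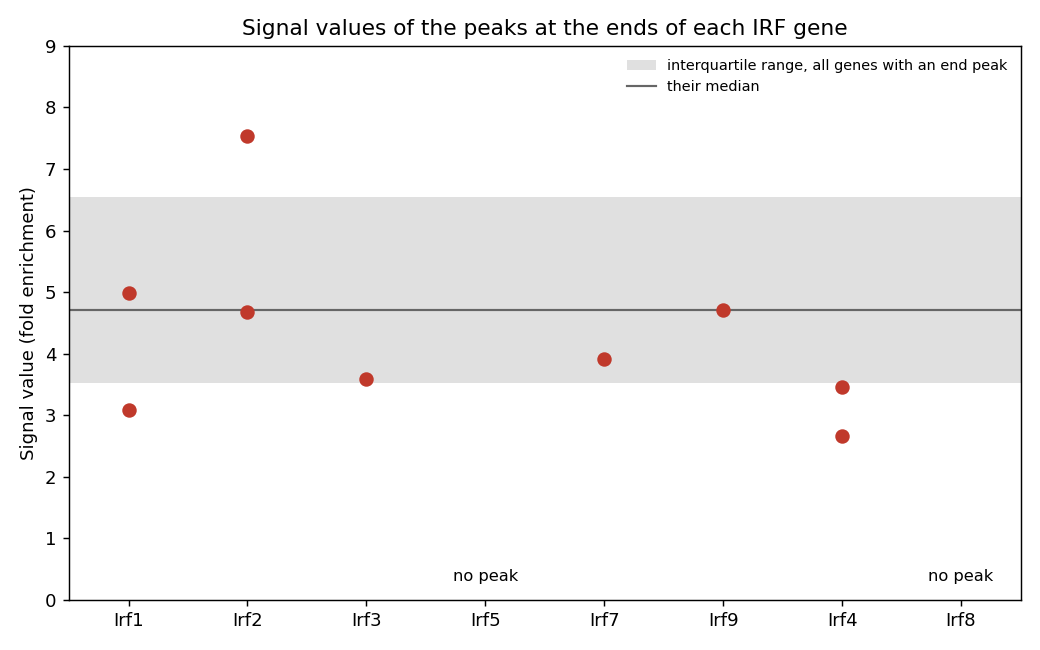
Signal value (fold enrichment) of every peak at an end of each IRF gene (points), with the median (line, 4.71) and interquartile range (grey, 3.52 to 6.55) of the strongest end peak over all genes with one. The stronger Irf2 peak (7.53) lies above the grey band and the weaker (4.68) inside it; both Irf4 peaks and the weaker Irf1 peak (3.09) lie below it, and Irf5 and Irf8 have no peak.

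CpG content was set beside the start peaks, since promoters rich in CpG are often marked in many cell types. Over all genes with a window, a peak lay at the most upstream start in 9.95% of those with 0 to 9 CpG dinucleotides in 300 bases, in 48.0% with 10 to 19, in 61.7% with 20 to 29 and in 62.9% with 30 or more. Irf8, with 38 CpG, and Irf5, with 35, were in the richest class and had no start peak, while Irf1, with 32, had one. Irf7 and Irf9 were in the poorest class, with 7 and 9 CpG, and both had a start peak. Irf2 and Irf3 held 19 and 18 CpG and Irf4 held 11, in a class where Irf4 was the member without a peak. Genes with TATAAA in the window had a start peak in 18.1% of cases, against 39.7% of the others. Of the members with these letters, Irf7 had a start peak and Irf4 and Irf8 did not.

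**Figure D3:**
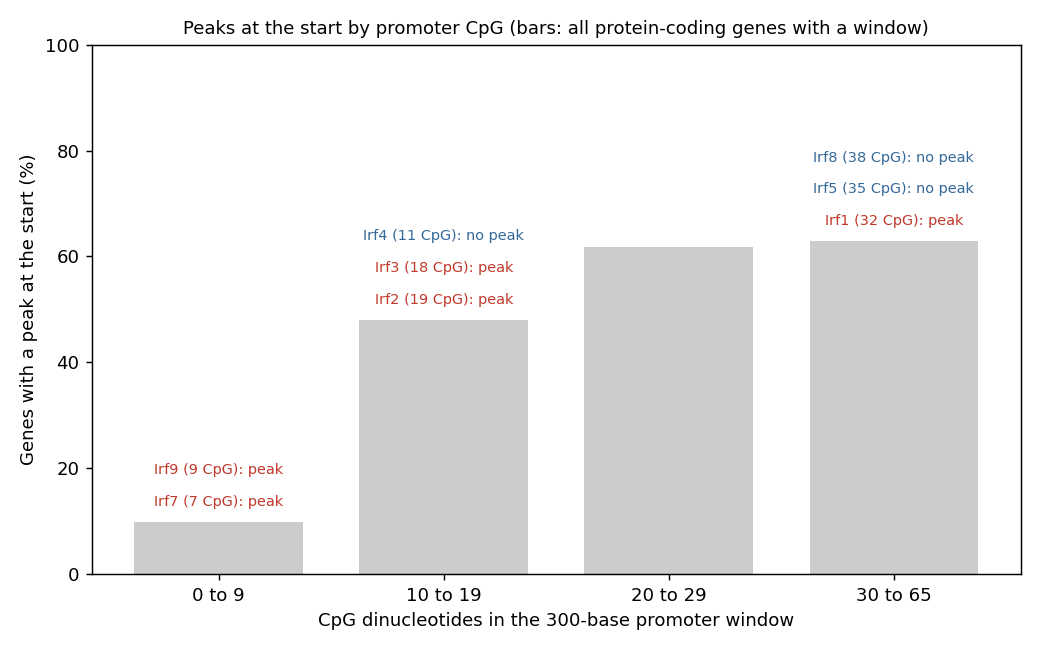
Percentage of all protein-coding genes with a peak within 1 kb of the most upstream start (grey bars), by number of CpG dinucleotides in the 300-base promoter window; each IRF member is named above its class. Irf5 and Irf8 lack a peak in the class with the highest bar, and Irf7 and Irf9 have one in the class with the lowest.

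Inside the genes, 16 peaks had their summit in a body and outside the end windows. They fell in 3 of the 8 members, against 16.6% of all genes. Irf2, at 107.7 kb the longest member, held 13, with signal values from 2.29 to 6.87. The strongest, on chromosome 8 from 46841837 to 46846150 (6.87, −log10 q 22.5), was 4314 bp wide and lay 2.9 kb before the far end. Most of the others were weak: 4 of the 13 had q of 0.05 or less. Irf4 held 2, at 11.1 and 12.1 kb after the start, with signal values of 2.38 and 3.39. Irf8 held 1, and it was stronger than any peak at or in Irf4. This peak, on chromosome 8 from 120745275 to 120747270, was 1996 bp wide with its summit 10.6 kb after the start. It was listed with −log10 q of 8.26 and a signal value of 4.48. A body peak with none at either end, as in Irf8, was found in 7.58% of genes. Irf5 had neither an end peak nor a body peak, as in 56.2% of genes.

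Within 100 kb of the genes and outside their bodies and end windows lay 60 further peaks, and each member had at least 4. Of all genes, 72.1% had at least 1, with a median of 2 (interquartile range 0 to 5). Irf4 had 12, Irf1 and Irf9 10 each, Irf2 8, Irf7 7, Irf3 5, and Irf5 and Irf8 4 each. How these peaks relate to the member differed with the number of neighbouring genes. Irf3, Irf7 and Irf9 have 13, 13 and 19 other protein-coding genes within that distance. All 5 of the Irf3 peaks, 6 of the 7 of Irf7 and 9 of the 10 of Irf9 sat at an end of another gene. The strongest 3 were near Dcaf11 (11.2), Tinf2 (7.99) and Psme2 (4.99) for Irf9, and near Tmem80 (7.99), Phrf1 (7.38) and Rnh1 (6.33) for Irf7. For Irf3 they were near Prmt1 (6.52 and 4.37) and Tsks (5.54). Irf5 had its strongest near Tnpo3 (4.44) and Atp6v1f (4.25), both at an end of that gene, followed by one 31.2 kb after its start (2.59). In all, 25 of the 60 lay at an end of another gene and 13 had the member's own end as the nearest one. Shares of these kinds over all genes are not given here, so neither count can be called high or low.

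**Figure D4:**
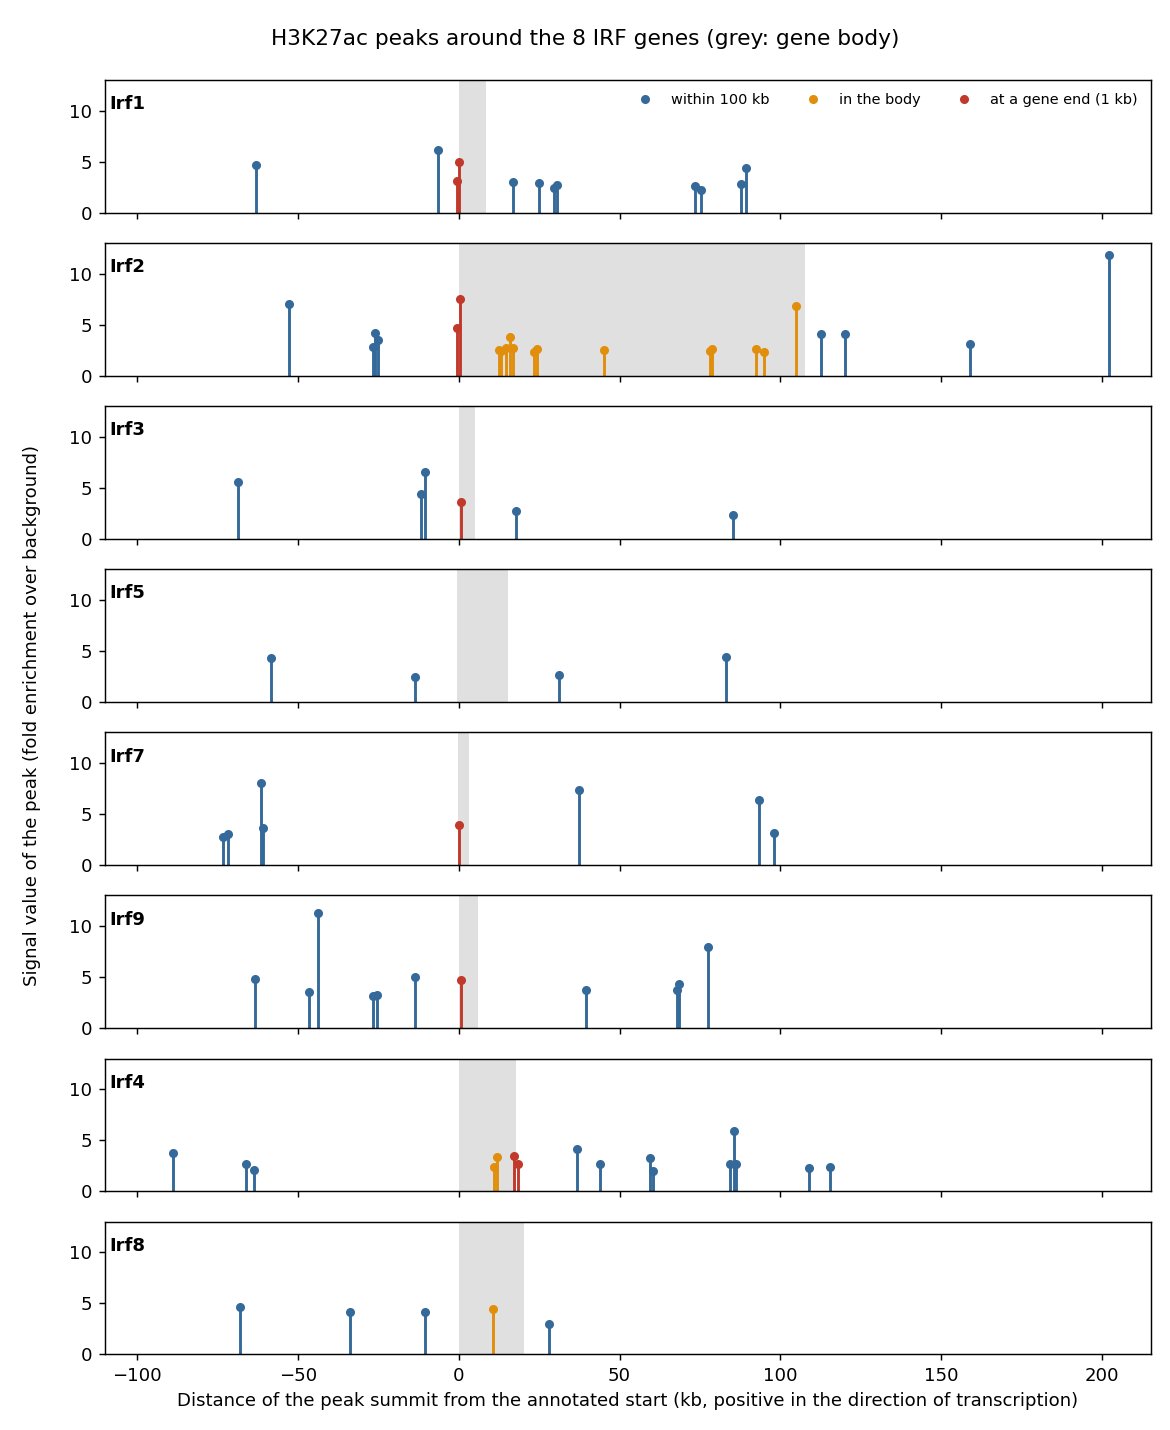
Signal value of each peak against the distance of its summit from the annotated start (kb), for the 8 IRF genes; grey spans are the gene bodies, red marks peaks at an end, orange peaks in the body and blue peaks within 100 kb. Irf2 carries 13 peaks in its body, Irf4 peaks lie mainly on the downstream side, and Irf8 has 5 in all.

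Irf1 and Irf2 were the members with the most peaks nearest to themselves. Of the 10 around Irf1, 5 had an Irf1 end as the nearest. The strongest lay 6.5 kb before the start (chromosome 11, 53762367 to 53764591, signal value 6.12), above both peaks at the start itself. It was followed by 4 on the downstream side between 16.9 and 30.4 kb after the start, with signal values from 2.37 to 2.95. Another 4 lay 73.6 to 89.4 kb after it, nearest to Slc22a5, which encodes a carnitine transporter, the strongest of them at 4.37. A peak at an end of Rad50, 62.9 kb before the start, had 4.68. Around Irf2, a group of 3 lay 25.1 to 26.7 kb before the start (2.79, 4.16 and 3.52) and a single one 52.6 kb before it (6.98). Peaks with summits 4.9 and 12.4 kb beyond the far end of Irf2 had signal values of 4.13 and 4.04. The strongest peak within reach, with a signal value of 11.8, lay 94.4 kb beyond the far end of Irf2 and 2.7 kb from an end of Enpp6, inside that gene (chromosome 8, 46940216 to 46943930).

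The 12 peaks around Irf4 lay 3 upstream and 9 downstream. None had an Irf4 end as the nearest, and 11 had their summit inside Dusp22 or Exoc2, the genes on either side. The strongest, on chromosome 13 from 30834006 to 30835054 (5.91, −log10 q 13.7), lay 85.4 kb after the Irf4 start within Exoc2, a subunit of the exocyst. The next was at 30784426 to 30787558, in the interval between Irf4 and Exoc2 (4.10), and the third at an end of Dusp22 (3.76). Only 5 of the 12 had q of 0.05 or less. Counting ends and body too, 7 of 16 Irf4 peaks did.

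Irf8 had 5 peaks in all, and all 5 had q of 0.05 or less. Upstream, the peak on chromosome 8 from 120724681 to 120726359 lay 10.5 kb before the start (signal value 4.10). One at 120701617 to 120702749 lay 33.9 kb before it (4.10), and one at an end of Cox4i1 lay 67.8 kb before it (4.64). Downstream, a single peak at 120764261 to 120764681 lay 28.2 kb after the start (3.00). Mouse Irf8 enhancers are known at about -50, 32, 41 and 56 kb from the start, used in monocyte and dendritic cell development. None of these 4 positions had a peak within 2 kb. The nearest was the peak at 28.2 kb, which lay 3.8 kb from the 32 kb position. The nearest to the -50 kb position lay 16.1 kb away.

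Set side by side, Irf4 and Irf8 had 21 peaks and the other 6 members 64. Both lacked a start peak, as did Irf5, and both had a body peak, as did Irf2. The members with a body peak were also the longest genes, at 107.7 kb (Irf2), 20.3 kb (Irf8) and 17.7 kb (Irf4), against 3.3 to 15.7 kb for the others. With −log10 q of 5 or more, or signal values of 4 or more, Irf4 had 0 body peaks and Irf8 and Irf2 had 1 each. Counts within 100 kb overlapped: 12 and 4 for Irf4 and Irf8, and 4 to 10 for the others. Of their peaks within 100 kb, 2 of 16 (12.5%) lay at an end of another gene, against 23 of 44 (52.3%) around the other members. This did not set them apart from every other member: Irf1 had 1 of 10 and Irf2 had 0 of 8, and most of the 23 were around Irf3, Irf7 and Irf9. Other protein-coding genes within 100 kb numbered 2 around Irf4 and 3 around Irf8. They numbered 3, 1 and 6 around Irf1, Irf2 and Irf5, and 13, 13 and 19 around Irf3, Irf7 and Irf9. No share over all genes is given here for this measure. Over all their peaks, Irf4 and Irf8 differed from each other, with median signal values of 2.66 and 4.10. The medians of the other members ran from 2.79 (Irf2) and 2.93 (Irf1) to 4.34 (Irf9), so the sets overlapped. Irf5 was the exception among the other 6, with no peak at an end or in the body. The sets were proposed with results of these data in view, and genes are not replicates, so no test was made. B-cell markers had end peaks in 5 of 5 genes while myeloid markers had none in 5, and their part in the Irf4 and Irf8 pattern was not tested.

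By peak counts at ends, in the body and within 100 kb (as log2 of 1 plus the count) and by the strongest signal value, 4 features of this 1 list, the genes nearest to Irf8 were Spg21, Plekhh2 and Synj1, at distances of 0.02, 0.07 and 0.07. Each had no end peak, 1 body peak and 4 peaks within 100 kb. Those nearest to Irf4 were Chd4, Prxl2a and Nusap1, at distances of 0.34, 0.41 and 0.55, each with 2 end and 2 body peaks.

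Around the IRFs, a list of 37 interferon pathway and partner genes, chosen with earlier results of these data known, was counted by role. A peak lay at an end of 29 of them (78.4%), against 36.2% of all genes. All 6 receptor genes had one, the strongest being Ifnar2 and Il10rb, neighbours with 1 peak in common (signal value 5.14). Ifnar1 and Ifngr1, chains of the type I and type II receptors, had 3.55 each, and Ifnlr1 had 2.84. Held to signal values of 4 or more, or to −log10 q of 5 or more, Ifnar1, Ifngr1 and Ifnlr1 had no end peak. Ifnar2, Il10rb and Ifngr2 (5.05) kept one. Of the 5 receptor kinases and STATs counted, 4 had one, with Stat3 at 9.80, Jak1 at 7.81, Jak2 at 5.32 and Stat2 at 3.12; Tyk2 had none. All 9 adaptors and kinases between sensors and IRFs had one, from 3.33 at Irak4 to 9.73 at Tbk1, the kinase of Irf3.

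Of the 8 sensors, 5 (62.5%) had an end peak, the strongest at Tlr4 (7.50), and Tlr7, Tlr9 and Cgas had none. Of the 6 DNA-binding partners, 3 had one, namely Ikzf1 (10.1), Tcf3 (4.68) and Spi1 (4.11). Spib, Batf and Batf3 had none. Batf and Batf3 are the AP-1 partners of Irf4 and Irf8 in lymphoid and dendritic cells. Of the co-repressors that bind Irf2, Irf2bp2 (5.42) and its relative Irf2bpl (6.24) had one and Irf2bp1 none. The share in every role was above the 36.2% of all genes, and differences between roles were not tested. Because the list was chosen with earlier results in view, these shares are a description of the listed genes only.

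**Figure D5:**
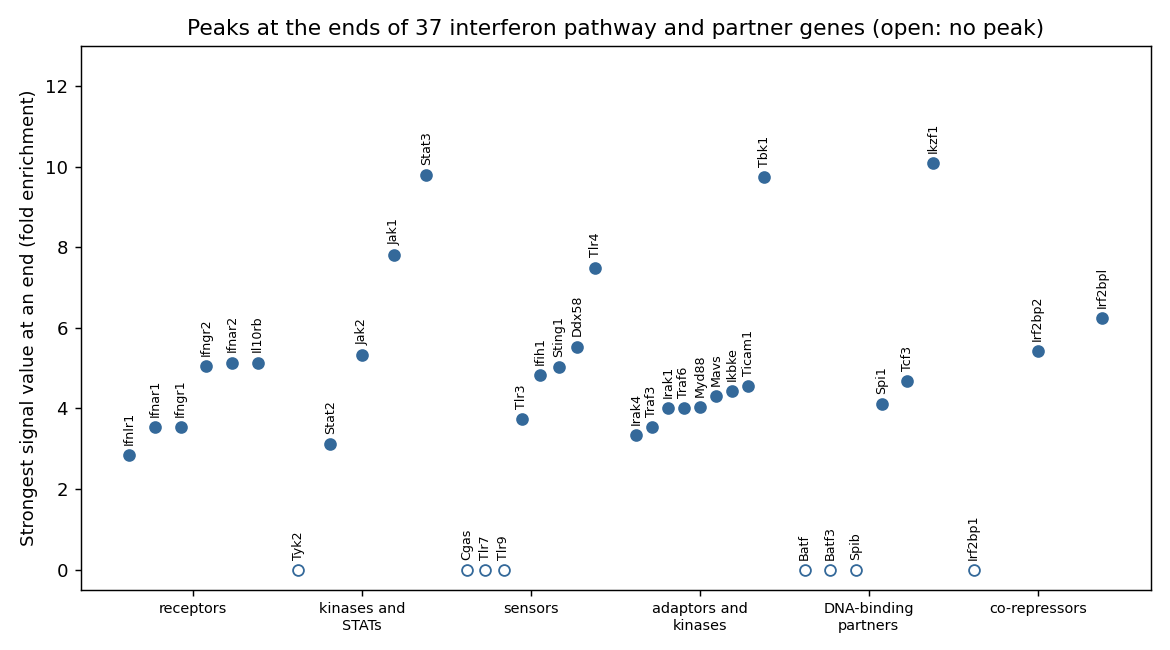
Strongest signal value (fold enrichment) at an end of each of 37 interferon pathway and IRF partner genes, grouped by role; open circles at 0 are genes with no peak. All receptors and all adaptors and kinases have a peak, while Tyk2, Tlr7, Tlr9, Cgas, Spib, Batf, Batf3 and Irf2bp1 have none.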

How the data were processed

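H3K27ac ChIPmentation libraries (4) and 1 input library of sorted Mll3/4 deleted cells were available as 1 peak list for all libraries together. BWA, MACS2 and mm10 are named in the submitters' processing notes, with no version or role. The list is labelled "minus Input" and "overlap optimal peak", with no rule given for the overlap. Filters and any further handling of replicates are not given in the sources used here. The list was deposited with a score, a signal value read as a fold ratio over background, and −log10 p and −log10 q per peak. All are the authors' own values and were used to describe, rank and filter peaks. The score was not used further.

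Coordinates are 1-based on mm10, the GRCm38 assembly of the RefSeq gene table (GRCm38.p6). Peaks were given to ends by overlap with 1 kb on either side, and to bodies and to 100 kb by their summit. Starts and strand came from the promoter table, which held all 8 members with 11 starts. Promoter matches were counted in 250 bases before to 50 after each start. Python 3.11.15 and pandas 2.3.3 were used.

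Members, gene lists and motifs were chosen with earlier results of these data known. Names printed are the members with their end peaks, strongest body peak and 3 strongest other peaks, their neighbours, the pathway genes without an end peak or with the strongest of their role, and the 3 genes most like Irf4 and Irf8 over 200 kb away. The other pathway genes named, other peaks, and counts by annotated start, CpG and TATA letters, were chosen after the values were seen. Alternatives were other windows, distances and stricter lists. Protein identity was not analysed here, and some planned genes are not reported here.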

Additional observations from a re-analysis of the deposited data

How the results depend on the processing

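Of 213 recomputed values, 135 stayed within 1.5 times the value reported and 78 did not, 58 of them counts or values of a single member. The 135 take in counts of 0, such as body peaks of Irf1, which a stricter list could not change, so they are no measure of stability. Held to signal values of 4 or more, the list left 3 members with an end peak (Irf1, Irf2 and Irf9), 3 of them among the other 6 and 0 of Irf4 and Irf8, against 23.2% of all genes (36.2% with the whole list). Held to −log10 q of 5 or more, 4 members had one, against 24.0% of all genes, and Irf4 and Irf8 again had 0. Counted by annotated start, Irf4 and Irf8 had 0 and the other members 5. Body peaks numbered 6 with q of 0.05 or less, 2 in both stricter lists and 9 when peaks within 1 kb were merged. Peaks within 100 kb numbered 26 in both stricter lists, 29 within 50 kb, 94 within 200 kb, 13 when the member had to be nearest and 35 without those at other gene ends. All peaks of the members numbered 33 with −log10 q of 5 or more, 32 with signal values of 4 or more, 54 within 50 kb and 38 when the member had to be nearest. With a tolerance of 5 kb, 1 of the Irf8 enhancer positions had a peak. Irf5 and Irf8 lacked an end peak in all settings tried. Only the wider end window of 2.5 kb could have added one, since the other settings remove peaks, narrow the window or leave the ends as they are. The pathway count ranged from 22 of 37 in both stricter lists to 32 with 2.5 kb at gene ends. The shares of all genes there were 24.0% (−log10 q), 23.2% (signal value) and 39.3% (2.5 kb). Irf4 had 1 end peak with 500 bp. No paired analysis was possible because no column belongs to 1 replicate; leaving out libraries was not possible for the same reason. Protein identity was not run.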
